A study of Mus musculus with 292 samples.

Results

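Gcc2 and Ranbp2 lie close together on mouse chromosome 10, and each was measured by 1 probe in the brains of 292 F2 mice. The members were all probes annotated to either gene, which gave 2 probes of the 23574 in the table and 2 genes of the 10835 that could be named. The pair was chosen on measured values: earlier results of these data showed that both levels stepped up between mouse number 212 and mouse number 213 and that they moved with each other. That step and their mutual relation are therefore given as descriptions, with no test. Relations of other genes to the pair were fitted over all probes and are read only against the share of all probes that passed; as following the pair was part of how it was chosen, they are no independent support.

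The mice were F2 offspring of an intercross between the C57BL/6J and C3H/HeJ laboratory strains, bred with each strain on either side of the cross, and both females and males were used. All of them ate chow with 4% fat until 8 weeks of age and for the next 12 weeks a Western diet that held 42% fat and 0.15% cholesterol; brains were taken at 20 weeks, following a fast of 12 h. No mouse carried a named mutation or received another treatment, per the labels, and there was no untreated control group. Sex and direction of cross are not given for any single mouse in the sources used here. The labels divide the arrays only by mouse number and by a spelling difference in the description, whose meaning is not stated. This gave 141 mice with numbers 213 to 362, all of description form 1, and 151 mice with numbers 51 to 212. Of the mice up to 212, 77 mice had form 2 (numbers 54 to 212) and 74 had form 1 (numbers 51 to 196). What the numbers stand for is not stated either, so a change at number 213 cannot be told apart from any other difference between those mice or arrays.

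Each array compared the brain RNA of 1 mouse, in Cy3, with a common pool of RNA from all the samples, in Cy5. Each value was read as log10 of mouse over pool. Neither the base nor the direction is stated in the labels, so the fold changes and the words "higher" and "lower" rest on that reading. In bulk tissue such as whole brain, fewer cells of a type and less RNA per cell cannot be told apart. There was 1 array per mouse and no repeat, so the spread between mice includes measurement error. The SD over all probes of an array ran from 0.0437 to 0.199 with a median of 0.0677. Signal intensities were not used, so precision is stated from the number of arrays alone.

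Ranbp2 encodes a very large nucleoporin on the cytoplasmic filaments of the nuclear pore, the gate between nucleus and cytoplasm. It binds the small GTPase Ran and its activating protein Rangap1, acts as a SUMO ligase, and in neurons it has been tied to kinesin motors and mitochondria. Gcc2 encodes a golgin, a long coiled-coil tether of the trans-Golgi network that catches transport vesicles returning from endosomes and interacts with the small GTPases Rab6 and Arl1. In humans, a family of duplicated genes joins a body like that of RANBP2 with a golgin-type tail.

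In assembly GRCm38.p6 of the RefSeq gene table, Gcc2 spans chr10:58255408-58305599 (50192 bases) and Ranbp2 spans chr10:58446852-58494155 (47304 bases). The table puts 3 genes between them, namely the non-coding Gm40668, the protein-coding Lims1 and the small nuclear RNA gene Gm23058, none of which was among the named genes here. They are thus near neighbours rather than directly adjacent. The bases just before each gene's start are shown because both genes are read in the same direction from separate promoters and their levels moved together. The sequences are from RefSeq on the plus strand, chr10:58255276-58255407 for Gcc2 and chr10:58446602-58446851 for Ranbp2, with capitals for the motif matches named after them. The promoter table's start of Gcc2 lies inside the gene's span, so only the part before the span is printed for it.
Gcc2: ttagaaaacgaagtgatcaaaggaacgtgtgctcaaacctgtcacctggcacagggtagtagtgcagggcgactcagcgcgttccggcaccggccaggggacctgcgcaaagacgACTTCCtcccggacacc
Ranbp2: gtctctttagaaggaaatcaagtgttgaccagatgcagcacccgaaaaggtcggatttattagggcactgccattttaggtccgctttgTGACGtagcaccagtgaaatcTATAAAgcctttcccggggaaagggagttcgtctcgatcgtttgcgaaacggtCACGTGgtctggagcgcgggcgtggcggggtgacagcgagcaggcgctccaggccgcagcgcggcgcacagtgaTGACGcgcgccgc
Over the 250 bases before the start that the promoter table gives, GC content was 62.4% for Gcc2 and 58% for Ranbp2. Gcc2 had 24 CpG dinucleotides and Ranbp2 had 25, and 10.7% and 9.59% of all 32851 promoters in the table had more. Of 7 short motifs searched on both strands, none occurred in both windows. The ETS core GGAAGT occurred 2 times in the Gcc2 window, 1 of them in the printed part on the minus strand as ACTTCC, and 19.7% of all promoters held it. The Ranbp2 window held the TATA box TATAAA (12.4% of promoters), the E-box CACGTG (6.02%) and 2 copies of the CRE core TGACG (17.8%). Neither window held CCAAT (33.8%), the GC box GGGCGG (32.7%) or the NRF1 motif (3.74%). A match is a string of letters and does not show that a factor binds.

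Both genes were higher in the mice numbered from 213, and Gcc2 more so. The lowest, median and highest Gcc2 log10 ratio was 0.000155, 0.189 and 0.27 in the 141 mice from 213, against -0.234, -0.00593 and 0.21 in the 151 mice up to 212. All 141 mice from 213 were above the pool for Gcc2, whereas 71 of 151 were in the block up to 212. Ranbp2 had 0.128 as its median in mice from 213, with a lowest value of -0.0386 and a highest of 0.228, while in mice up to 212 the median was -0.00067, the lowest -0.186 and the highest 0.192. It was above the pool in 137 of 141 mice from 213 and in 75 of 151 up to 212. The ranges of the blocks overlapped for each gene, although few mice crossed to the middle of the other block.

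**Figure D1:**
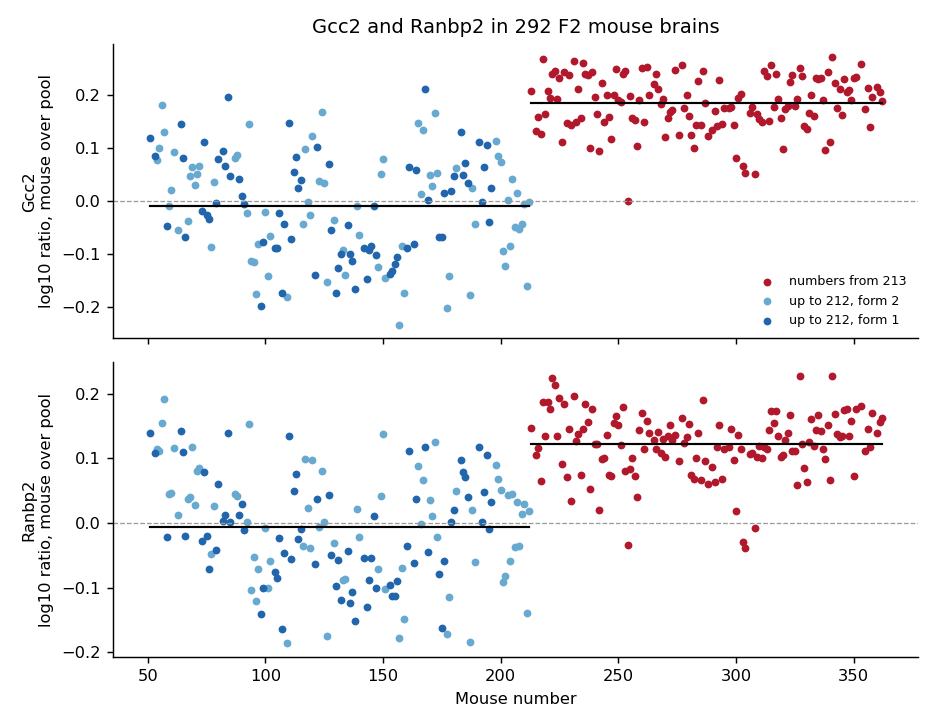
Log10 ratio of mouse over pool (vertical) against mouse number (horizontal) for Gcc2 (top) and Ranbp2 (bottom), 1 point per mouse, red for the 141 mice from 213 and 2 blues for the 77 form 2 and 74 form 1 mice up to 212; black lines are block means. Points from 213 lie around means of 0.183 and 0.123, above the means of -0.0107 and -0.00666 of mice up to 212, and spread less.

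Mean Gcc2 was 0.183 ± 0.0509 (SD, n = 141) in mice from 213 and -0.0107 ± 0.0972 (SD, n = 151) in mice up to 212. The step was 0.194 with an SE of 0.00914, or 1.56-fold. For Ranbp2 the means were 0.123 ± 0.0485 (SD, n = 141) from 213 and -0.00666 ± 0.0851 (SD, n = 151) up to 212, a step of 0.129 with an SE of 0.00815, or 1.35-fold. Of the 23549 probes used, 66.7% changed between the blocks at an adjusted p under 0.05 in limma (30.5% upward and 36.1% downward), so a step at this number was common. Its size was less so: 26 probes (0.11%) had a larger upward step than Gcc2 and 241 (1.02%) had a larger one than Ranbp2. The block accounted for 60.6% of the variance of Gcc2 and 46.3% of that of Ranbp2, against a median of 4.11% over all probes.

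Among the mice nearest the boundary, the change lay at number 213 itself rather than building up over many numbers. Levels farther down were not all low. In numbers 51 to 70 median Ranbp2 was 0.11, against 0.114 to 0.144 in bins of numbers from 213. Median Gcc2 was 0.0704 there, against 0.17 to 0.209. Mouse 213 had 0.207 for Gcc2 and 0.147 for Ranbp2, while mouse 212 had -0.00322 and 0.0191. In the first 10 mice from 213, the lowest, median and highest Gcc2 were 0.125, 0.201 and 0.267, and in the last 10 up to 212 they were -0.161, -0.0246 and 0.0405. The same 10 mice from 213 had Ranbp2 values of 0.0652, 0.161 and 0.225, against -0.139, 0.017 and 0.045 in the last 10 up to 212. Neither gene overlapped between these sets of 10. The pair was chosen for a step at this number, and no share of all probes is given for such a separation, so it is a description.

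The labels describe the pool as equal portions of RNA from each sample. On the linear scale the mean ratio to that pool was 1.54 in mice from 213 and 1 in mice up to 212 for Gcc2, and 1.26 over all 292. For Ranbp2 the mean ratio was 1.33 from 213, 1 up to 212 and 1.16 over all mice. A pool of equal portions of all 292 samples, measured without error, would have a mean linear ratio of 1 over those samples. Only the mice up to 212 sat there, for Gcc2 and for Ranbp2. The pattern was not particular to the pair. Zfp638 had mean log10 ratios of 0.22 from 213 and -0.0105 up to 212, Nup62 had -0.121 and -0.000772, and Egln2 had -0.127 and -0.00386. No share of all probes with this pattern is given, and its cause was not tested.

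Spread between mice was smaller in the block from 213. The SD from 213 was 0.524 times that up to 212 for Gcc2 and 0.57 times for Ranbp2, while the median probe had 0.899. A smaller ratio was found for 3.91% of probes in the case of Gcc2 and for 6.23% in that of Ranbp2. In the block from 213, 4 mice had Ranbp2 below the pool, and these were also the 4 with the lowest Gcc2. Mouse 254 had 0.000155 for Gcc2 and -0.0332 for Ranbp2, mouse 303 had 0.0647 and -0.0296, mouse 304 had 0.0531 and -0.0386, and mouse 308 had 0.0509 and -0.00821. Gaussian mixtures gave no separate clusters of mice within any array set: the largest gain in the Bayesian information criterion from a second component was 4.32, for Ranbp2 from 213, below the 10 asked for. Over all mice together the gain was 46.3 for Gcc2 and 40.8 for Ranbp2. With 3 components in place of 1 it was 51.1 and 29.4. The values over all mice include the step for which the pair was chosen, so they are no separate sign of clusters.

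The description form, which had no part in choosing the genes, divided the mice up to 212. Gcc2 averaged -0.0109 ± 0.1 (SD, n = 77) in form 2 and -0.0105 ± 0.0945 (SD, n = 74) in form 1. Their difference was -0.000455 with an SE of 0.0157 (limma adjusted p = 0.998), and its 95% interval ran from 0.93-fold to 1.07-fold. Ranbp2 averaged -0.000584 ± 0.0884 (SD, n = 77) in form 2 and -0.013 ± 0.0817 (SD, n = 74) in form 1, a difference of 0.0124 with an SE of 0.0137 (adjusted p = 0.983) and an interval of 0.967-fold to 1.1-fold. Across all probes, 252 (1.07%) passed between the forms. One of them was Eif2s3y, a Y-linked translation factor gene, with a median of 0.281 in form 2 and -1.65 in form 1 (difference 1.85, adjusted p = 2.39e-88). Neither Gcc2 nor Ranbp2 showed a detectable difference along that divide, and the intervals bound the size it could have.

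Inside the blocks, levels followed the mouse number little from 213 and somewhat more up to 212. From 213, Gcc2 changed by 0.00369 per 100 mouse numbers (SE 0.00995, limma adjusted p = 0.819) and Ranbp2 by 0.00421 (SE 0.00948, adjusted p = 0.782), while 25.3% of probes had a trend. Up to 212, Ranbp2 fell by 0.0368 per 100 numbers (SE 0.0146, adjusted p = 0.0365), and Gcc2 had a slope of -0.0303 (SE 0.0168, adjusted p = 0.144). Downward trends were found for 17.2% of all probes in that block, upward ones for 20.5% and trends of either sign for 37.7%, so the Ranbp2 call is one of many. The trend was downward, opposite in sign to the step. The slopes from 213 and up to 212 differed by 0.041 for Ranbp2 (SE 0.0181, adjusted p = 0.0571) and by 0.034 for Gcc2 (SE 0.0204, adjusted p = 0.174), so neither difference passed.

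A straight line hid a wavy course up to 212. Median Gcc2 was 0.0704 in numbers 51 to 70, -0.082 in numbers 91 to 110, 0.0283 in 111 to 130, -0.0925 in 131 to 150 and 0.00115 in 191 to 210. Median Ranbp2 went the same way, with 0.11, -0.0717, -0.00722, -0.0709 and 0.0321 in those bins. Up to 212, r between neighbours in number was 0.358 for Gcc2 and 0.324 for Ranbp2 (150 pairs), where the median probe had 0.196. A higher r was found for 14.1% of probes in the case of Gcc2 and for 19% in that of Ranbp2. From 213 this r was -0.0367 for Gcc2 and 0.171 for Ranbp2 (140 pairs), against a median of 0.0342. There 74.9% of probes were above Gcc2 and 14.6% above Ranbp2. In bins of numbers from 213 the medians stayed between 0.17 and 0.209 for Gcc2 and between 0.114 and 0.144 for Ranbp2.

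Gcc2 and Ranbp2 followed each other closely in every set of arrays. Pearson's r was 0.806 from 213 (Spearman's rho 0.762, n = 141), 0.94 in form 2 up to 212 (rho 0.943, n = 77) and 0.924 in form 1 up to 212 (rho 0.936, n = 74). Without the 2 mice farthest from the median Ranbp2, r was 0.775, 0.936 and 0.917. Taken over all mice it was 0.945, which includes the step, and 0.904 after centring each gene within the 3 sets. These values are descriptions, since the pair was chosen for this relation, and both genes were read on the same array of each mouse.

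**Figure D2:**
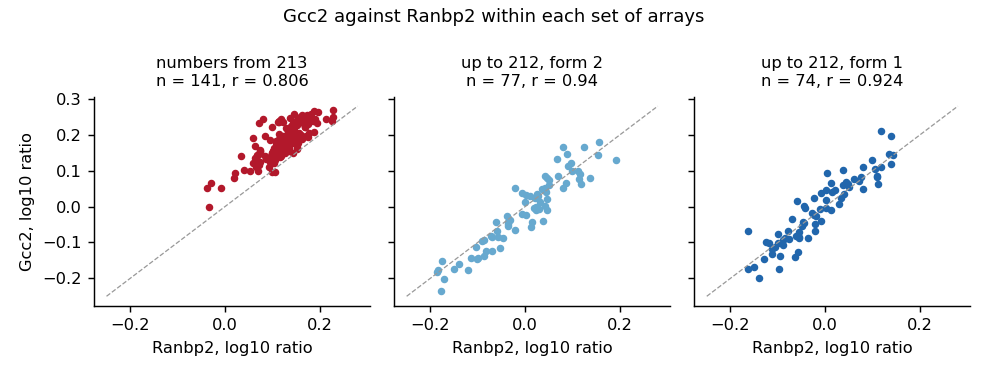
Gcc2 (vertical) against Ranbp2 (horizontal), log10 ratio of mouse over pool, 1 point per mouse, in the 141 mice from 213, the 77 of form 2 up to 212 and the 74 of form 1 up to 212; the dashed line marks equal values. Points rise together in each panel (r = 0.806, 0.94 and 0.924), and from 213 nearly all lie above the line.

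The balance between the genes shifted with the block. Gcc2 minus Ranbp2, a difference of log10 ratios, averaged 0.0605 ± 0.0311 (SD, n = 141) from 213 and -0.00403 ± 0.0361 (SD, n = 151) up to 212. Gcc2 was above Ranbp2 in 139 of 141 mice from 213 and in 62 of 151 up to 212. Because each probe is set against its own pool value, this compares changes and not amounts of the transcripts. For each unit of Ranbp2, Gcc2 changed by 0.846 from 213, by 1.07 in form 2 and by 1.07 in form 1.

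Many other genes followed the pair. Likeness to the pair was measured as the mean of r with Gcc2 and r with Ranbp2 over the 292 mice, after centring within the 3 array sets. In limma, 68.7% of all other probes had a slope on Gcc2 at an adjusted p under 0.05 (28.6% positive and 40% negative), and 67.5% had one on Ranbp2 (28% positive and 39.5% negative). Both relations were positive for 26.6% of probes and both negative for 37.4%. Of the other 10833 named genes, 885 had a likeness above 0.5 and 830 had one below -0.5. The first principal component of the centred values held 12.3% of the variance. Its correlation had a size of 0.658 with Gcc2 and 0.624 with Ranbp2, and 7.1% and 9.81% of probes were more strongly tied to it.

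The closest followers were spread over the genome and had varied roles. Top2b, a DNA topoisomerase of postmitotic neurons on chromosome 14, had r of 0.894 with Gcc2 and 0.894 with Ranbp2. Mphosph8, a reader of repressive histone methylation, also on chromosome 14, had 0.924 with Gcc2 and 0.86 with Ranbp2. Casp8ap2, a nuclear protein gene linked to histone transcription, had 0.897 with Gcc2 and 0.882 with Ranbp2. These had the highest likeness of the named genes, and all were also among the 5 with the highest uncentred r, with Rb1cc1 and Smc2. Rb1cc1, a scaffold of autophagy initiation, had a likeness of 0.867, and Smc2, a condensin subunit, 0.859, although another Smc2 probe had -0.3.

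Others among the 15 closest were Cse1l (0.861), the exporter of importin alpha; Zfp638 (0.853); Armc1 (0.851); Erap1 (0.849), a peptidase of antigen processing; and Ift81 (0.846), a component of the trains inside cilia. They were followed by the deubiquitinase gene Usp47 (0.838), Dld (0.838), which encodes a mitochondrial dehydrogenase subunit, the apoptosis inhibitor gene Api5 (0.838), the actin bundler gene Pls3 (0.836) and the chaperonin subunit gene Cct6a (0.836). Over these 15 genes, r with either member ran from 0.559 to 0.867 from 213, from 0.823 to 0.964 in form 2 and from 0.816 to 0.971 in form 1. All 15 had an upward step, from 1.11-fold for Api5 to 1.7-fold for Zfp638. The 15 genes lay on 11 chromosomes, and 0 of them on chromosome 10. Probes of 1 gene did not always match: the 3 Api5 probes ran from 0.0443 to 0.838 and the 3 Rb1cc1 probes from 0.409 to 0.867.

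Genes at the other end moved against the pair. Epn1, an endocytic adaptor gene, had a likeness of -0.86, and Npdc1 had -0.859. Next came Cdc34 (-0.838), a ubiquitin-conjugating enzyme gene, Tpgs1 (-0.831), a subunit of the tubulin polyglutamylase, and Naglu (-0.831), a lysosomal enzyme gene. Egln2 (-0.829), an oxygen-sensing hydroxylase gene, the pacemaker channel gene Hcn2 (-0.824) and the muscle kinase gene Speg (-0.808) completed the 8 lowest. Their levels from 213 were 0.754-fold to 0.892-fold those up to 212. In these 8 genes r ran from -0.797 to -0.622 from 213, from -0.901 to -0.818 in form 2 and from -0.94 to -0.821 in form 1.

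Likeness to the pair went with the step and with the length of the gene. Of all 10833 named genes, 4878 had a step above 0, whether or not it passed the threshold (median step -0.00315). Of the 100 genes most like the pair, 100 had a step above 0 (median 0.093). Of the 100 least like it, 0 did (median -0.0647). Their median span from start to end was 49603 bases for the 100 highest and 10520 for the 100 lowest, against 21791 over all named genes. Gcc2 and Ranbp2 are themselves long, with 27.3% and 28.6% of named genes longer. With genes put into 10 equal bins by likeness, median span was 13658 bases in the lowest and 40638 in the highest, and the median step was -0.0418 in the lowest and 0.0515 in the highest. Across genes, Spearman's rho of likeness was 0.59 with the step and 0.243 with span (n = 10833, genes being no independent replicates and sharing the same arrays). Promoter GC content differed less, with medians of 58.8%, 61.4% and 58% in the 100 highest, the 100 lowest and all named genes.

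**Figure D3:**
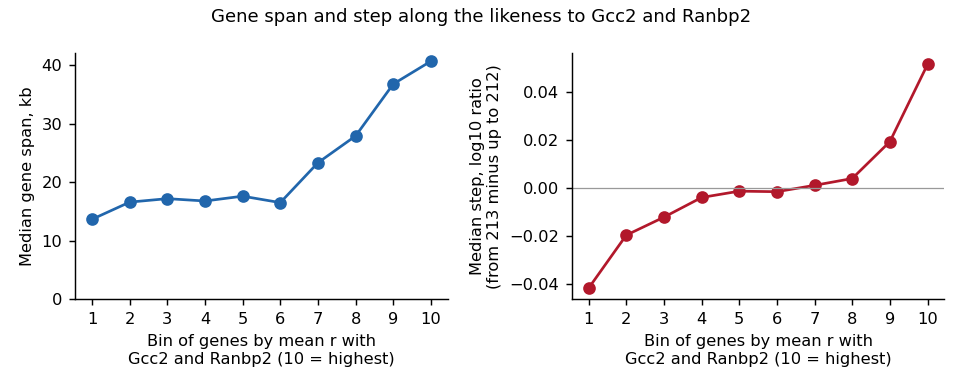
Median gene span in kilobases (left) and median step in log10 ratio, from 213 minus up to 212 (right), for 10 equal bins of 10833 named genes ordered by likeness to Gcc2 and Ranbp2, with bin 10 the highest. Span is longest (40638 bases) and the step highest (0.0515) in the top bin, and they are lowest in the bottom one (13658 bases and -0.0418).

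Genes around the pair on chromosome 10 varied in their relation to it. The members were chosen for following each other, so a lower r of their neighbours shows nothing about the locus. No gene between the members was measured. Of the 23 genes in or within 10 places of the pair, 3 were measured. Smpdl3a, a phosphodiesterase gene, had r of 0.29 with Gcc2 and 0.364 with Ranbp2. Pkib, an inhibitor of protein kinase A, had 0.268 and 0.369, though in mice from 213 alone its r with Gcc2 was -0.0718. Edar, a receptor of the tumour necrosis factor family, had -0.133 with Gcc2 (adjusted p = 0.0351) and -0.124 with Ranbp2 (adjusted p = 0.0518). Among the 5 nearest measured genes on either side, likeness ran from -0.449 to 0.556 with a median of 0.0664. For the 506 measured genes of chromosome 10 the median was -0.053, and for the 10327 on other chromosomes -0.066. The 100 highest genes lay on 20 chromosomes, 9 of them on chromosome 10, which holds 4.67% of named genes.

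**Figure D4:**
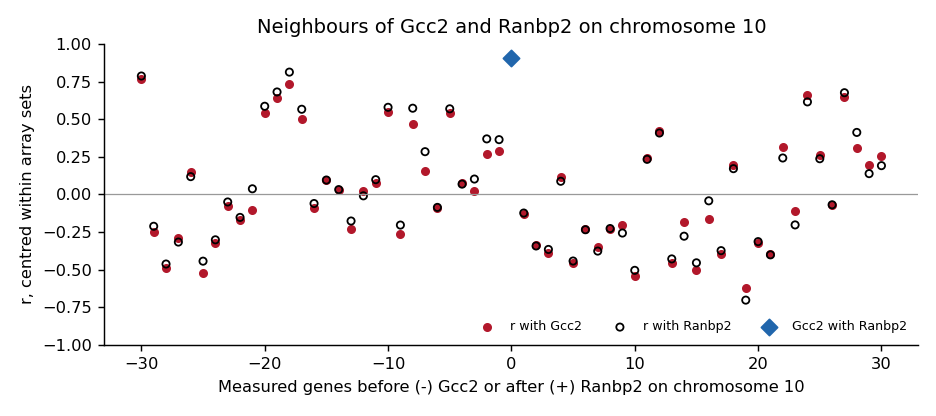
r with Gcc2 (filled) and with Ranbp2 (open), centred within array sets, for measured genes before Gcc2 (negative) and after Ranbp2 (positive) in their order on chromosome 10; the diamond is Gcc2 with Ranbp2 (0.904). The nearest genes lie on both sides of 0, as genes farther away do. The pair was chosen for its relation, so the diamond is a description and no reference for the other genes.

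Nuclear pore genes, the structural partners of Ranbp2, divided in their relation to the pair. Of 30 listed, 16 were measured; 9 were positively related to both members, 6 negatively and 1 in neither way, which here means that at most 1 of the relations passed or that they differed in sign. Over all named genes, 26.4% were positive and 39.4% negative, with a median likeness of -0.0654 against 0.233 in the list. Nup54, of the central channel, had r of 0.767 with Gcc2 and 0.763 with Ranbp2. Nup205, of the inner ring, had 0.702 and 0.718. Nup62, the channel partner of Nup54, had -0.544 and -0.51, and Nup188, another inner ring protein, had -0.37 and -0.431. Pore genes thus moved both ways, and at the step 6 were higher from 213, 7 lower and 3 not called. Of all 10833 named genes, 3223 were higher from 213, 4189 lower and 3421 not called. These values of all named genes are the background for the other lists too, and no list was tested against them.

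Among Ran and the transport receptors, 29 of 32 were measured, with 12 positive, 4 negative and 13 neither (median likeness 0.101). Cse1l had r of 0.84 with Gcc2 and 0.882 with Ranbp2, and the import receptor gene Ipo11 had 0.839 and 0.769. Kpna6, an importin alpha gene, had -0.348 and -0.317, and Ranbp1, a Ran-binding cofactor gene, had -0.309 and -0.261. For Ranbp1 the values from 213 alone were -0.0153 and -0.0522, and its other probe had a likeness of -0.0063 over all mice. The GTPase gene Ran itself had 0.0752 with Gcc2 (adjusted p = 0.251) and 0.121 with Ranbp2 (adjusted p = 0.0584), and with no term for the array sets these were -0.109 and -0.0572. Rangap1 had -0.112 (adjusted p = 0.0835) and -0.116 (adjusted p = 0.0744). At the step, 11 of the 29 genes were higher from 213, 8 lower and 10 not called.

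In the SUMO list, 11 of 16 genes were measured, of which 5 were positive, 2 negative and 4 neither (median 0.0639). The SUMO protease gene Senp6 had r of 0.505 with Gcc2 and 0.537 with Ranbp2, and the ligase gene Pias2 had 0.339 and 0.459. Its relatives differed in sign: Pias1 had 0.235 and 0.221, whereas Pias4 had -0.359 and -0.373. Pias3 had -0.238 and -0.344, though Pias3 had 0.0776 with Gcc2 in mice from 213 alone. Of 13 listed binding partners of Ranbp2, 9 were measured, and 3 were positive, 3 negative and 3 neither. The kinesin heavy chain gene Kif5b had 0.559 and 0.595 and the exportin gene Xpo1 0.331 and 0.426. Kif5c, a neuronal kinesin heavy chain gene, had -0.163 and -0.212, but 0.299 and 0.144 in mice from 213 alone. The pore gene Nup214 had -0.171 and -0.218, and its r with Gcc2 was 0.134 from 213.

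Golgin and trans-Golgi genes, the surroundings of Gcc2, were mostly positive. Of 30 listed, 18 were measured, 11 of them positive, 1 negative and 6 neither, with a median likeness of 0.228. Over all named genes, 26.4% were positive and 39.4% negative. Golga5, a golgin of the Golgi rims, had r of 0.843 with Gcc2 and 0.735 with Ranbp2, and Golga4, a trans-Golgi golgin with the same type of tail as Gcc2, had 0.78 and 0.691. The exception was Golga2, the cis-Golgi golgin, at -0.641 and -0.691. Rab6a, a partner of Gcc2, had 0.469 and 0.458, yet was 0.928-fold at the step, and its other probe had a likeness of -0.166. With the first principal component as a covariate, Rab6a had -0.0808 and -0.0458. Gcc1, the other golgin with a similar name and tail, had 0.302 with Gcc2 and 0.234 with Ranbp2 and was 0.89-fold at the step; with that covariate it had -0.391 and -0.46, and with no term for the array sets -0.067 and -0.055. Rab6b had -0.155 with Gcc2 (adjusted p = 0.0131) and -0.109 with Ranbp2 (adjusted p = 0.0886), and 0.0418 and 0.0785 from 213 alone. Steps of the list were 7 higher from 213, 7 lower and 4 not called, against 3223, 4189 and 3421 of all 10833 named genes. Arl1 was not among the named genes here.

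**Figure D5:**
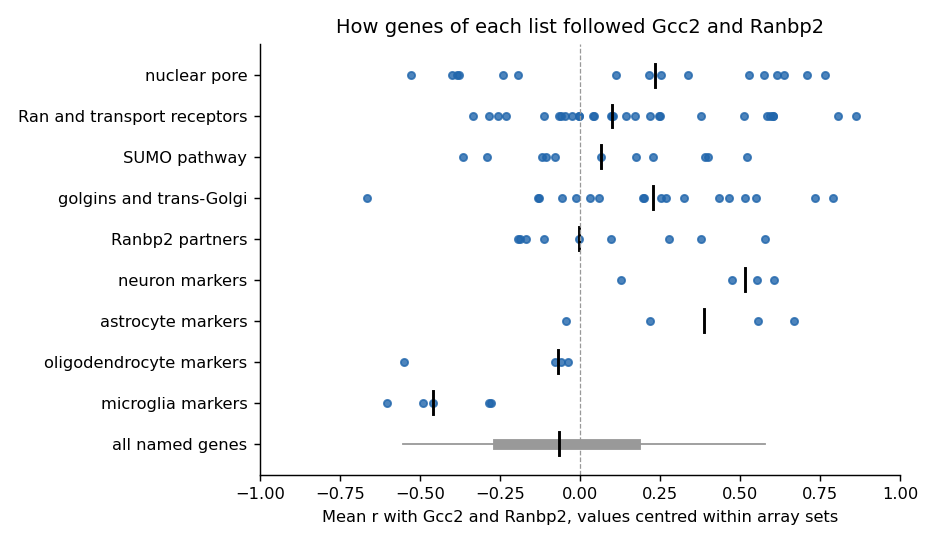
Likeness (mean r with Gcc2 and Ranbp2, centred within array sets) of each measured gene (blue points) by list, with black bars for list medians; for all named genes the grey bars span the 5th to 95th and the 25th to 75th percentiles. Golgin and nuclear pore medians are 0.228 and 0.233 and the microglia median is -0.459, against -0.0654 for all named genes.

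Earlier results of these data named 5 other genes with large steps, and the chosen probe of all 5 followed the pair within the array sets too. Rb1cc1 and Zfp638 are given above, and Postn had a likeness of 0.681, Gm14288 0.574 and Zfp958 0.501. The 3 Gm14288 probes ran from -0.104 to 0.574. From 213 alone, Postn had r of 0.18 with Gcc2 and 0.253 with Ranbp2, Gm14288 had 0.304 and 0.403, and Zfp958 had 0.288 and 0.397. Rb1cc1 had 0.864 and 0.796 from 213, and Zfp638 had 0.765 and 0.798. Since the members were chosen with the earlier results known, the relation of these 5 genes to the pair is no independent evidence.

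Markers of brain cell types differed in their relation to the pair. Over all named genes, 26.4% were positive and 39.4% negative, and the short marker lists were not tested against these shares. Neuron markers were positive in 3 of 4 measured genes and negative in none. Syt1 had a likeness of 0.605, Snap25 0.553, Gad1 0.474 and Gad2 0.127. Gad2 passed with Ranbp2 (limma adjusted p = 0.034) but not with Gcc2 (0.0575). The mean log10 ratio of the neuron markers per mouse ran from -0.103 to 0.16 (median 0.0389) in mice from 213. Up to 212 it ran from -0.242 to 0.182 (median -0.00797). From 213 alone, Snap25 had r of 0.05 with Gcc2 and 0.144 with Ranbp2, against 0.752 and 0.734 in form 1 up to 212. Syt1 had 0.437 and 0.382 from 213, against 0.773 and 0.725 in form 1 up to 212. Microglia markers were negative in 5 of 5, from Tmem119 at -0.603 to Csf1r at -0.277. Their mean ran from -0.167 to 0.0891 (median -0.0579) from 213 and from -0.117 to 0.14 (median -0.00522) up to 212. From 213 alone, Tmem119 had r of -0.0983 with Gcc2 and -0.316 with Ranbp2, and C1qa had -0.00167 and -0.277. In form 1 up to 212, Tmem119 had -0.822 and -0.757, and C1qa had -0.696 and -0.676. Csf1r went the other way, with -0.393 and -0.503 from 213 and -0.0848 and -0.218 in form 1 up to 212. Astrocyte markers were positive in 3 of 4, with Aqp4 at 0.668, Gja1 at 0.556 and Slc1a3 at 0.218, while Aldh1l1 had -0.0429. At the step 1 of them was higher from 213, 2 were lower and 1 was not called, with Slc1a3 at 0.78-fold. The median of their mean was -0.0291 from 213 and -0.000634 up to 212. Oligodendrocyte markers were negative in 1 of 4, which was Mag at -0.551, and their median was -0.0595 from 213 and -0.0044 up to 212.

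Endothelial markers were positive in 1 and negative in 2 of 4, choroid plexus markers positive in 1 of 3, erythrocyte markers positive in 1 of 3, and the 4 pituitary hormone genes neither, with likeness between -0.0403 and -0.00971. Ratios to a pool cannot show which markers are absent, and the part of any cell type in the levels of Gcc2 and Ranbp2 was not tested.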

How the data were processed

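The deposited table holds, for 292 arrays, values taken as log10 ratios of mouse (Cy3) to pool (Cy5); dyes and pool are as given in the labels. Per the labels' protocols, RNA was isolated on DNase-treated spin columns and amplified with an aminoallyl kit. The authors' scanning, background correction, normalization and filters, the log base and the direction were not given in the sources used here. Limits at -2 and 2 (690 values) correspond to 100-fold in base 10. Of 23574 probes (0.0433% of values missing), 25 missing on over 5% of arrays were left out and 252 gaps took the mean of their probe, leaving 23549. Neither member probe (10024395507 for Gcc2, 10024403114 for Ranbp2) had a missing value, and no further normalization was applied.

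The platform annotation gave 13665 probes 1 gene, 48 several and 9861 none. By gene identifier, 12662 matched the GRCm38.p6 gene table and took its symbol, 1003 did not, and 10835 genes were named, each by its probe with the largest SD. Promoters came from RefSeq.

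Members and lists were chosen with earlier results of these data known. The genes named are the members, the 15 with the highest and 8 with the lowest likeness, the 5 with the highest uncentred r, the measured near neighbours, the 2 highest and 2 lowest of each list, and Ran, Rangap1, Arl1, Rab6a and Gcc1, with 1 item of this rule not reported here; marker genes, Eif2s3y, Pias1, Api5's and other genes' further probes, and single mice were named after their values were seen. The lists were nuclear pore, Ran and transport receptors, SUMO, golgins and trans-Golgi, Ranbp2 partners, earlier step genes, chromosome 10 neighbours and 8 sets of cell type markers.

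Tests used limma 3.58.1 in R 4.3.3 over all probes with Benjamini-Hochberg adjustment and an adjusted p under 0.05; relations had a term for the 3 array sets, and trends up to 212 one for the form. The fits were tested on simulated data. Mixtures with equal variance used mclust 6.1.1. Alternatives changed centring, scale, array weights, missing values, arrays entered, covariates and ranks.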

Additional observations from a re-analysis of the deposited data

Results flagged for a closer look

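Slopes of genes on Gcc2 or Ranbp2 were compared between the mice from 213 and those up to 212, with limma over all probes for the genes named from the lists and the chromosome 10 neighbours, 27 in all; most of them had been named for a high or low likeness. A slope is the change in a gene's log10 ratio per unit of the member's, and its difference is that from 213 minus that up to 212. Over all probes the difference passed at an adjusted p under 0.05 for 32.2% on Gcc2 and 23.4% on Ranbp2. Among the 27 genes it passed for 16 on Gcc2 and for 7 on Ranbp2, the count on Ranbp2 being near the share of all probes. Because these genes were mostly named for their relation on the same arrays, the passes support nothing and the values below are descriptions. Of the genes that passed, 4 on Gcc2 and 1 on Ranbp2 had r of opposite signs in the blocks.

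On Gcc2 the slope was less positive or more negative from 213 for Cse1l (-0.223), Ipo11 (-0.346), Golga5 (-0.292), Senp6 (-0.196), Golga2 (-0.242) and Pkib (-0.309). It was more positive or less negative for Nup54 (0.142), Kif5b (0.368), Rab6a (0.44), Xpo1 (0.387), Gcc1 (0.425), Kif5c (0.523), Nup214 (0.294), Ranbp1 (0.44), Pias3 (0.262) and Nup62 (0.329). On Ranbp2 the difference was -0.189 for Cse1l, -0.455 for Ipo11, -0.401 for Golga5, -0.114 for Nup188 and -0.214 for Golga2, and 0.282 for Xpo1 and 0.43 for Kif5c.

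Kif5c had r of 0.299 with Gcc2 from 213 and -0.333 up to 212, and 0.144 and -0.355 with Ranbp2. Nup214 had 0.134 from 213 and -0.437 up to 212 with Gcc2, Pias3 had 0.0776 and -0.449, and Pkib had -0.0718 and 0.395. Both members had a smaller spread from 213, where r and slope rest on a narrower range; the part of that in these differences was not tested.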

How the results depend on the processing

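Of 109 alternative values of the main comparisons, 100 kept their direction and side of the threshold or moved within the allowed margin. With 40 arrays on either side of number 213, 10009 probes stepped in place of 15698, and with a fold of at least 1.2 added, 1587 did. Between the forms, array weights gave 391 probes in place of 252. The Gcc2 difference between forms turned to 0.00268 with arrays scaled to equal spread and to 0.00814 with array weights, and its trend from 213 turned to -0.0037 with scaled arrays, none past the threshold. With mice from 213 alone, 10557 probes were related to Gcc2 (16166 with all mice) and 9476 to Ranbp2 (15888), and r of Gcc2 with Ranbp2 was 0.806 in place of 0.904. The Ranbp2 trend up to 212 had an adjusted p between 0.0191 and 0.043 over its alternatives.

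Some named genes changed sign. With no array set term, Gcc1 had r of -0.067 with Gcc2 and -0.055 with Ranbp2, and Ran -0.109 and -0.0572. With the first principal component as covariate, Gcc1 had -0.391 and -0.46, Rab6a -0.0808 and -0.0458, and Ran -0.00235 with Gcc2. From 213 alone, Kif5c had 0.299 and 0.144 and Rab6b 0.0418 and 0.0785, and with Gcc2 Nup214 had 0.134, Pias3 0.0776 and Pkib -0.0718. With ranks, Kif5c had 0.0235 with Gcc2. The cause was not tested. Leaving out arrays of wide spread, chosen after seeing the data, changed none of the 102 named relations. The mean of all probes was not run because each member has 1 probe. No paired analysis was possible because the mice form 1 labelled group with no shared replicate numbers.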
